A study of Mus musculus with 36 samples.

Results

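The 39 genes described here encode interferon-stimulated proteins, sensors of viral RNA and the factors and receptor chains that connect them. They were chosen by gene name from a deposited table of 48709 genes, and all 39 were found in it. RNA sequencing had been run on stria vascularis cells (SVCs) of CBA mice, an inbred strain whose hearing declines late, aged 1, 9 and 26 months. That tissue, an epithelium threaded by capillaries in the cochlear lateral wall, secretes potassium into endolymph. For every age there were 3 libraries (A, B and C), each made from cells pooled from cochleae of male and female mice without any treatment, and each sequenced in 4 runs. Every value is an RPKM, a read count scaled by transcript length and library total, and 1 value per library was deposited.

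Cells that detect viral RNA or DNA secrete type I interferon, which binds a receptor made of the IFNAR1 and IFNAR2 chains. The receptor activates transcription factors, STAT2 with its partner IRF9 among them, that act through a DNA element called the interferon-stimulated response element (ISRE) upstream of many genes. The proteins made from those genes bind foreign RNA, block viral entry or translation, or act back on the sensors and the receptor. Many of them are also made at a low level without infection, and macrophages and endothelial cells are among the cell types that express them.

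The 3 libraries of an age were not equally far apart. In 450 genes of high level, library A at 1 month differed from the other two by a coefficient of variation of 5.77 to 6.90%, and library B at 9 months from the other two by 9.68 to 9.72%. All remaining pairs of an age differed by 1.17 to 2.05%. The labels describe 3 pools an age, but the methods of the study give differing numbers of biological replicates in different places, in one of them with technical repeats, so the p-values below measure the spread between libraries, which may be technical. A library held 14818 to 15315 genes of at least 0.1 RPKM, and the depth of each library is unknown. Strial markers were present at every age: the summed level of 8 marginal cell markers was 2088 to 2119 RPKM at 1 month, 2531 to 2760 at 9 months and 2539 to 2541 at 26 months, and that of 8 intermediate cell markers 4016 to 4348 over all libraries, although Tyrp1 among them was close to 0 (a mean of 0.00833 RPKM at every age). The 6 basal cell markers summed to 953 to 964, 1539 to 1588 and 834 to 848 RPKM at the 3 ages in turn. Of the other cell types, 9 spiral ligament fibrocyte markers summed to 124 to 125, 545 to 578 and 236 to 237 RPKM at 1, 9 and 26 months. In such bulk samples, fewer cells of a type and less RNA per cell cannot be told apart.

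Across the 9 libraries, 5 members had a mean of at least 100 RPKM, 7 a mean from 10 to under 100, 22 a mean from 1 to under 10, and 5 a mean under 1 RPKM. Ifi27l2a was the most abundant with a mean of 883 RPKM, followed by Ifitm3 with 559, Ifi27 with 408, Ifitm2 with 185 and Lgals3bp with 107 RPKM. These 5 genes together summed to 2852 to 2897 RPKM in the libraries at 1 month, 1679 to 2083 at 9 months and 1711 to 1769 at 26 months. The other 34 members summed to 302 to 316, 297 to 305 and 360 to 364 RPKM at the 3 ages in turn. The summed level of the abundant genes was thus above that of both later ages in every library at 1 month, while the sum of the remaining genes was above that of both earlier ages in every library at 26 months. Much of that rise lay in 3 of the 34 genes: Ifit1, Ifit2 and Ifit3 had mean sums of 47.9, 39.0 and 84.0 RPKM at 1, 9 and 26 months.

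**Figure D1:**
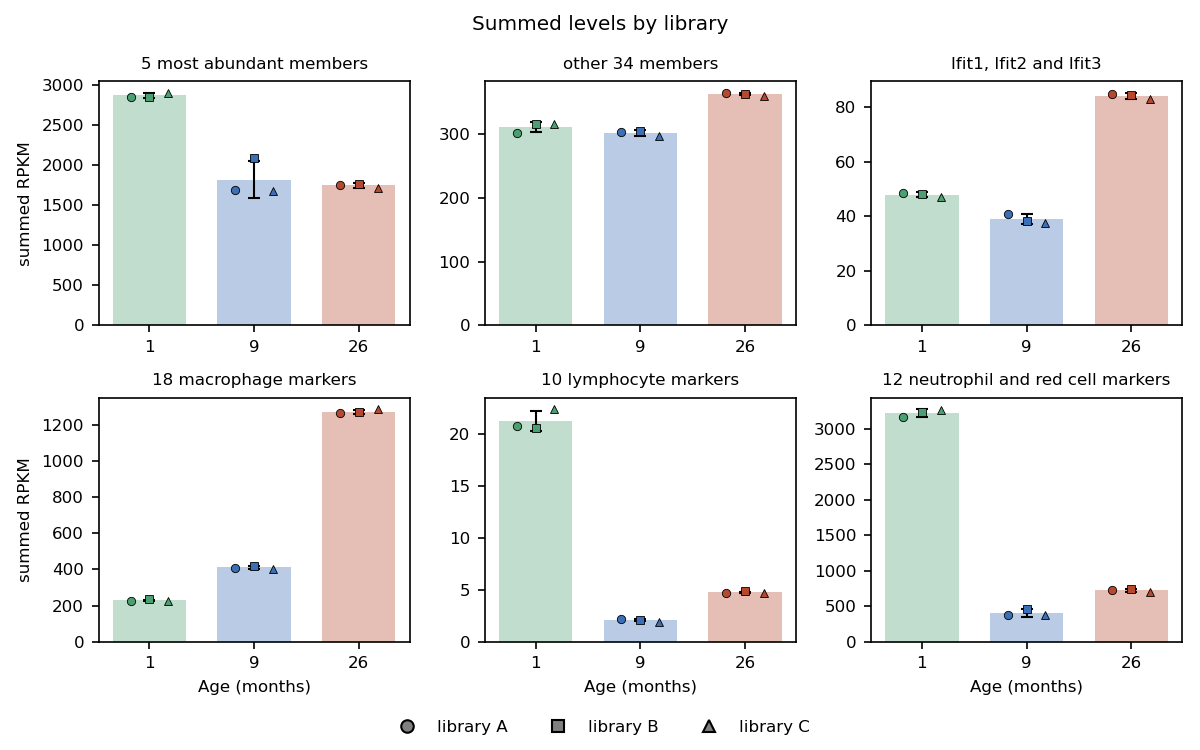
Summed RPKM (vertical axis, from 0) at 1, 9 and 26 months for 3 groups of members (upper row) and 3 lists of blood and immune cell markers (lower row). Points are libraries A, B and C, bars their mean and error bars the SD. The IFIT sum reached 82.8 to 84.7 RPKM at 26 months, above all libraries of the other ages. The macrophage sum was 1269 to 1289 RPKM at 26 months, most of it from the single marker Lyz2.

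The level of a gene was compared between ages with limma on log2(RPKM + 0.1), over 15806 genes that reached 0.1 RPKM in 3 or more libraries. A call required a p, adjusted by Benjamini and Hochberg's method over all genes tested, of no more than 0.10 and a log2 fold change of 1 or more in either direction. Of the 39 members, 38 were tested. Mx1, a GTPase that blocks influenza viruses, was listed at 0 in all libraries at 1 month and at up to 0.05 RPKM later, and was not tested. At 26 against 9 months, 2 members were called, both higher, where 3.28% of all genes tested were called higher and 4.05% lower. At 9 against 1 month, 1 member was called, as higher, where 10.1% of all genes were called higher and 1.47% lower. At 26 against 1 month, 7 members were called higher and 1 lower, where 9.92% and 2.51% of all genes were.

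By the adjusted p alone, with no threshold on the fold change, 26, 33 and 31 of the 38 members passed in these comparisons, and so did 62.8%, 72.1% and 73.9% of all genes tested. The median log2 fold change of the members was 0.17 at 26 against 9 months, 0.15 at 9 against 1 month and 0.29 at 26 against 1 month. The median of all genes tested was −0.03, 0.27 and 0.24 in the same comparisons. Of the 38 members, 29 lay above the median of all genes at 26 against 9 months, 15 at 9 against 1 month and 20 at 26 against 1 month. A log2 fold change on this scale understates the change of genes with a low level.

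**Figure D2:**
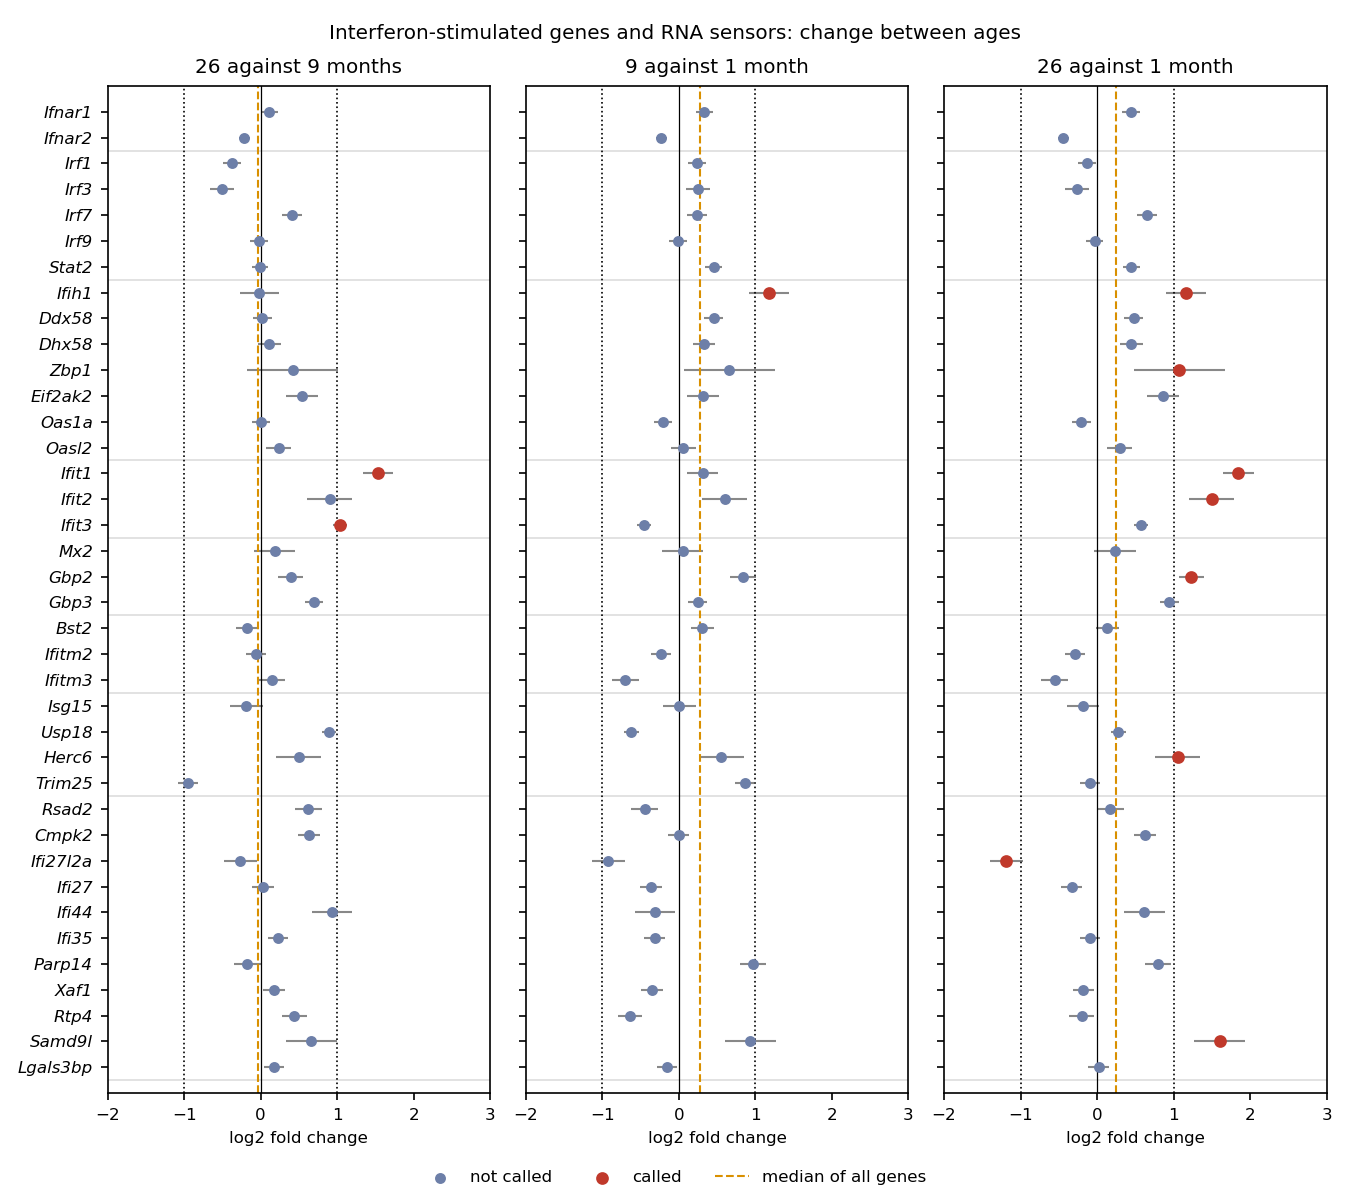
Log2 fold change (horizontal axis) of the 38 tested members, ordered by role, at 26 against 9 months, 9 against 1 month and 26 against 1 month. Points are limma estimates with 95% confidence intervals, red where called, dotted lines mark a log2 fold change of 1 in either direction and the dashed line the median of all genes tested. Ifit1 lay farthest right in both comparisons with 26 months, at 1.53 and 1.84, and Ifi27l2a farthest left at 26 against 1 month, at −1.19.

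Ifit1 had the largest log2 fold change of the members at 26 against 9 months and at 26 against 1 month. The products of the IFIT genes bind viral RNA or the translation factor eIF3, and IFIT1 recognises RNA caps that lack the methylation of host mRNA. Ifit1, Ifit2 and Ifit3 lie with Ifit3b, Ifit1bl1 and Ifit1bl2 in a span of 99.3 kb on chromosome 19 (chr19:34550694-34650009, GRCm38), and Ifit1 takes up 34640871 to 34650009 on the plus strand.

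Ifit1 had 4.88, 4.38 and 3.85 RPKM at 1 month, 6.05, 5.10 and 5.15 at 9 months and 15.9, 15.7 and 16.1 at 26 months. The libraries at 26 months stood far above all others, whereas those at 1 and 9 months lay close to each other without overlapping. It rose 2.90-fold at 26 against 9 months (log2 fold change 1.53 ± 0.09 SE, limma with Benjamini-Hochberg adjusted p = 1.1e-06) and 3.59-fold at 26 against 1 month (1.84 ± 0.09, adjusted p = 1.8e-07). The change at 9 against 1 month was 0.31 ± 0.09, near the median of all genes, and turned to −0.09 with quantile normalization.

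Ifit3 was the most abundant gene of the family. It had 41.4, 41.7 and 40.8 RPKM at 1 month, 30.9, 30.6 and 28.6 at 9 months and 62.2, 62.3 and 60.1 at 26 months. The 9-month libraries were thus the lowest and the 26-month libraries the highest, with no overlap. Ifit3 rose at 26 against 9 months by a log2 fold change of 1.03 ± 0.04 (SE, adjusted p = 1.0e-07), which is close to the threshold, and without library C at 9 months it fell just short of it, at 0.999. At 26 against 1 month it was 0.57 ± 0.04 and at 9 against 1 month −0.46 ± 0.04, and neither was called. The neighbouring near-copy Ifit3b, named after its values were seen, had means of 10.7, 8.38 and 14.2 RPKM at 1, 9 and 26 months, and the counting may have split reads between the pair.

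Ifit2 had 2.35, 2.05 and 2.43 RPKM at 1 month, 3.98, 2.73 and 3.90 at 9 months and 6.60, 6.55 and 6.63 at 26 months. Its product, unlike most of the family, can promote cell death. The ages did not overlap and stood in the order of age, although library B at 9 months lay close to the 1-month libraries. Ifit2 rose 2.82-fold at 26 against 1 month (1.50 ± 0.13, adjusted p = 6.0e-06), while 0.90 ± 0.13 at 26 against 9 months was below the threshold on the fold change, which it passed after quantile normalization, at 1.01. Summed over the trio, the IFIT level was 47.0 to 48.6 RPKM at 1 month, 37.6 to 40.9 at 9 months and 82.8 to 84.7 at 26 months. All 6 genes of the chromosome 19 cluster had a positive log2 fold change at 26 against 9 months, of which 2 were called. Of all genes tested, 3.28% were called higher in that comparison, and their median log2 fold change was −0.03. Near-copies such as Ifit3 and Ifit3b may share reads, so the 6 signs are not independent.

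The upstream sequences of Ifit1 and Ifit3 are shown because they carry the letters of the ISRE and the genes were the members called at 26 against 9 months. The letters searched, on both strands, were GAAA, any 2 bases and GAAA again, in windows of 250 bases before to 50 bases after the RefSeq start of each gene (GRCm38.p6). Capitals mark each match, here read as TTTC, any 2 bases and TTTC on the gene strand, and adjacent matches may overlap.
Ifit1: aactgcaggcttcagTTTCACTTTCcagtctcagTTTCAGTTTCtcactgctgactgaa
Ifit3: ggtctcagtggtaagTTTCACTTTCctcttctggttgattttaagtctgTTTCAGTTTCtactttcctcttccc
The Ifit1 stretch is chr19:34640770-34640828 and the Ifit3 stretch chr19:34583358-34583431, both on the plus strand and both credited to RefSeq. The same pair of 10-base matches stands in both promoters, with first bases 104 and 85 bases before the start of Ifit1 and 156 and 122 bases before that of Ifit3.

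Of the 39 members, 30 had such a window, and 14 of these, or 46.7%, held the letters. Among all 27025 genes with a window, 3.99% held them. Of the 7 called members with a window, 4 held them: Ifit1, Ifit3, Gbp2 and Ifih1, in the last of these after the start. Herc6, Samd9l and Ifit2 were without a match in their windows. Isg15 held 3 overlapping matches 78, 72 and 66 bases before its start, and its level did not differ by a called amount in any comparison. A match describes letters in the window and not a bound site.

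Another group of members are sensors of foreign nucleic acid. MDA5, encoded by Ifih1, and RIG-I, encoded by Ddx58, are helicases that bind viral double-stranded RNA in the cytoplasm, and LGP2, encoded by Dhx58, modulates them. Of the 7 sensor genes, 1 was called at 9 against 1 month and 2 at 26 against 1 month, all higher, where 10.1% and 9.92% of all genes were called higher. At 26 against 9 months limma called 0 of them, and 2 of them, beside 60.7% of all genes tested, had an unadjusted p under 0.05.

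Ifih1 (chr2:62595798-62646255, minus strand) had 0.600, 0.475 and 0.625 RPKM at 1 month, 1.50, 1.20 and 1.53 at 9 months and 1.35, 1.38 and 1.43 at 26 months. The later ages overlapped with each other and stood above the 1-month libraries. It rose by a log2 fold change of 1.18 ± 0.11 (SE, adjusted p = 1.4e-05) at 9 against 1 month and of 1.16 ± 0.11 (adjusted p = 1.4e-05) at 26 against 1 month. At 26 against 9 months it was −0.02 ± 0.11, with a 95% interval from −0.27 to 0.24. Ifih1 was the one member called at 9 against 1 month, and it was below the fold threshold in both comparisons with 1 month under a pseudocount of 1 RPKM, quantile normalization, median of ratios scaling and removal of the length trend, at 0.59 to 0.94.

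Zbp1 encodes a sensor of Z-form nucleic acid that can start cell death. It was listed at 0, 0.1 and 0 RPKM at 1 month, at 0.125, 0.075 and 0.1 at 9 months and at 0.15, 0.15 and 0.2 at 26 months. All libraries at 26 months were above those of the other ages, but every value was near the lower limit of the table, whose values are multiples of 0.025 RPKM. The fitted log2 fold change of 1.08 ± 0.26 (SE, adjusted p = 0.0049) at 26 against 1 month depends on the pseudocount, being 0.18 with 1 RPKM and 2.98 with 0.01 RPKM. Leaving out library A or C at 1 month gave 0.91, and leaving out library C at 26 months gave 0.99, in each case without a call. The call was also lost after quantile normalization, at 0.95, and after removal of the length trend, at 0.83.

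The remaining 5 sensors were not called. For the 29 tested members that were never called, the SD over the 3 libraries of an age had a median of 4.32% of the mean and was at most 16.4%. Eif2ak2, which encodes the kinase PKR that stops translation on double-stranded RNA, had means of 2.31, 2.92 and 4.28 RPKM at 1, 9 and 26 months and a log2 fold change of 0.86 at 26 against 1 month. The means of Ddx58 were 5.25, 7.24 and 7.35 RPKM, and those of Dhx58 were 3.86, 4.88 and 5.28 RPKM. Oas1a and Oasl2 belong to the family of 2′-5′-oligoadenylate synthetases, whose active members switch on an RNase when they bind double-stranded RNA. Oas1a, which has near-copies such as Oas1g, had 8.72, 7.54 and 7.57 RPKM, and Oasl2 had 2.83, 2.97 and 3.51 RPKM.

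Among the GTPases, Gbp2 was called at 26 against 1 month. GBP2 and GBP3 are guanylate-binding proteins that assemble on the membranes of pathogens, and their genes have near-copies on chromosome 3. Gbp2 (chr3:142620602-142638008, plus strand) had 1.10, 1.00 and 1.05 RPKM at 1 month, 1.98, 1.80 and 2.10 at 9 months and 2.55, 2.50 and 2.75 at 26 months. The 3 ages did not overlap and stood in the order of age. Gbp2 rose 2.35-fold at 26 against 1 month (1.23 ± 0.07 SE, adjusted p = 6.0e-07), with 0.39 ± 0.07 at 26 against 9 months and 0.84 ± 0.07 at 9 against 1 month. The call at 26 against 1 month was lost with a pseudocount of 1 RPKM, quantile normalization or median of ratios scaling, at 0.81 to 0.99. Gbp3 had means of 3.97, 4.72 and 7.72 RPKM and log2 fold changes of 0.70 at 26 against 9 months and 0.94 at 26 against 1 month, both below the threshold on the fold change. Mx2 had means of 0.392, 0.408 and 0.475 RPKM.

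**Figure D3:**
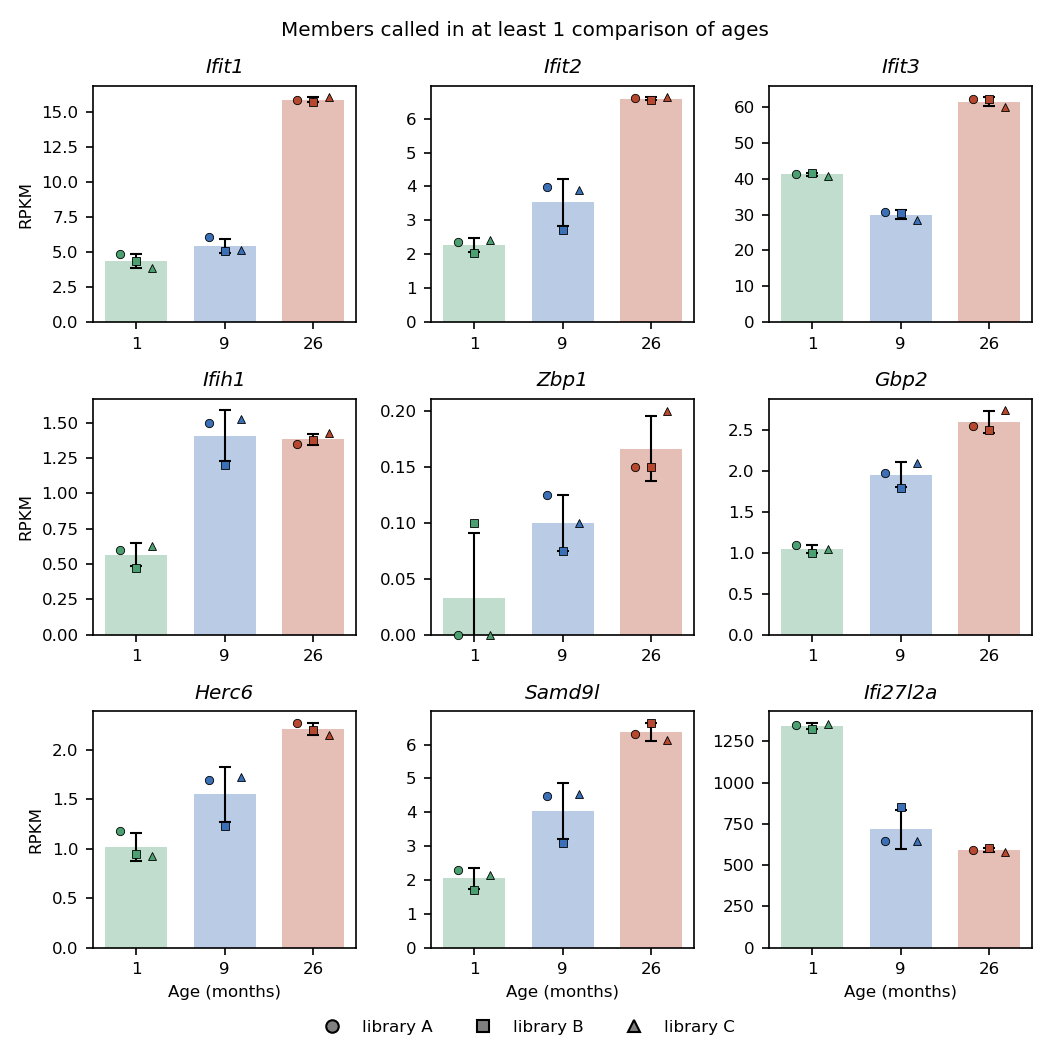
RPKM (vertical axis, from 0) of the 9 members called in at least 1 comparison, by age in months. Points are libraries A, B and C, bars their mean and error bars the SD. Ifit1 libraries at 26 months lie at 15.7 to 16.1 RPKM, Ifih1 is alike at 9 and 26 months, and Ifi27l2a is the one gene highest at 1 month.

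Samd9l and Herc6 were called higher at 26 against 1 month as well. SAMD9L restricts the replication of poxviruses and the proliferation of blood cells. Samd9l (chr6:3372257-3399572, minus strand) had 2.30, 1.70 and 2.15 RPKM at 1 month, 4.48, 3.10 and 4.55 at 9 months and 6.33, 6.65 and 6.15 at 26 months. Every library was above all those of any earlier age, and library B was the lowest of its age at both 1 and 9 months. Samd9l rose 3.03-fold at 26 against 1 month (1.60 ± 0.15 SE, adjusted p = 1.0e-05). At 9 against 1 month it was 0.94 ± 0.15, and it was called in that comparison without library B at 9 months, at 1.11, or without library A at 1 month, at 1.02.

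Herc6 encodes the ligase that attaches ISG15 to proteins in mice. It had 1.18, 0.950 and 0.925 RPKM at 1 month, 1.70, 1.23 and 1.73 at 9 months and 2.28, 2.20 and 2.15 at 26 months. The ages did not overlap, but library B at 9 months was near the highest 1-month library. Herc6 rose 2.08-fold at 26 against 1 month (1.05 ± 0.13 SE, adjusted p = 6.8e-05), a call that was lost without library C at 1 month, at 0.996, and with a pseudocount of 1 RPKM or another scaling, at 0.54 to 0.82, except for rescaling without the most abundant genes.

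The other genes of ISG15 conjugation moved in different ways. ISG15 is a ubiquitin-like protein that is joined to other proteins and removed by USP18, which also blocks signalling at IFNAR2. Isg15 had means of 7.11 ± 0.799, 7.12 ± 0.701 and 6.22 ± 0.388 RPKM at 1, 9 and 26 months (SD, n = 3 libraries), and its libraries overlapped between all ages. Usp18 had means of 12.7 ± 0.0433, 8.23 ± 0.0520 and 15.4 ± 0.715 RPKM, so that the 9-month libraries were the lowest, as for Ifit3. The log2 fold change of Usp18 at 26 against 9 months was 0.90 ± 0.04 (SE), just below the threshold.

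Trim25, which encodes a ubiquitin ligase that acts on RIG-I, had the opposite shape. Its means were 2.56 ± 0.138, 4.72 ± 0.115 and 2.39 ± 0.0878 RPKM at 1, 9 and 26 months (SD, n = 3 libraries). The log2 fold change was −0.95 ± 0.06 (SE) at 26 against 9 months and 0.86 ± 0.06 at 9 against 1 month, both short of the fold threshold. Trim25 was the member with the most negative value at 26 against 9 months. The summed fibrocyte and basal cell markers were likewise highest at 9 months, and their part in the Trim25 level was not tested.

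Ifi27l2a was the single member called lower. It and its neighbour Ifi27 on chromosome 12 encode small hydrophobic proteins of membranes. Ifi27l2a (chr12:103442167-103443680, minus strand) had 1351, 1323 and 1358 RPKM at 1 month, 647, 852 and 648 at 9 months and 594, 601 and 577 at 26 months. All libraries at 1 month were far above the rest, and library B at 9 months was above the other two of its age. It fell at 26 against 1 month by a log2 of 1.19 ± 0.09 (SE, adjusted p = 3.6e-06), and by more relative to the median of all genes, which was positive. At 9 against 1 month it was −0.92 ± 0.09, and without library B at 9 months it was called, at −1.05. At 26 against 9 months it was −0.26 ± 0.09.

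A further 3 abundant members were also highest at 1 month, to a smaller degree. Ifitm3 and Ifitm2 encode proteins of endosomal membranes that hinder fusion of viruses with the cell, and the genes are similar enough that reads may be shared. Ifitm3 had means of 729 ± 8.84, 452 ± 58.8 and 496 ± 13.0 RPKM at 1, 9 and 26 months (SD, n = 3 libraries), with a log2 fold change of −0.70 at 9 against 1 month. Ifitm2 had means of 208 ± 4.39, 178 ± 14.9 and 170 ± 5.27 RPKM. Ifi27 had means of 476 ± 7.70, 371 ± 37.5 and 377 ± 3.12 RPKM. In each of these genes library B at 9 months was the highest of its age, and each was below the fold threshold in every comparison. Bst2, which encodes the tether that holds budding viruses at the cell surface, had 46.8, 57.8 and 51.2 RPKM, and Lgals3bp, which encodes a secreted galectin-binding glycoprotein, had 110, 98.6 and 111 RPKM.

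Above these effector genes stand the receptor and its transcription factors, of which limma called 0 of 7 in any comparison. An unadjusted p under 0.05 was reached by 4 of them at 26 against 9 months, 6 at 9 against 1 month and 6 at 26 against 1 month, beside 60.7%, 69.5% and 71% of all genes tested. Ifnar1 had means of 10.8, 13.6 and 14.7 RPKM at 1, 9 and 26 months, while Ifnar2 had 39.4, 33.6 and 29.0 RPKM. In RPKM as deposited, the chains of the receptor thus had opposite orders of ages. At 26 against 1 month the log2 fold change was 0.44 ± 0.05 for Ifnar1 and −0.44 ± 0.03 for Ifnar2. After removal of the length trend these values were 0.03 and −0.66, and with median of ratios scaling 0.19 and −0.70. At 9 against 1 month Ifnar1 turned from 0.33 to −0.16 after removal of the length trend. The rise of Ifnar1 thus depended on the scaling, and the fall of Ifnar2 did not. Irf7, the factor that amplifies interferon production, had 5.33, 6.31 and 8.43 RPKM and a log2 fold change of 0.65 ± 0.06 at 26 against 1 month. Irf3, which is activated by the sensors and starts interferon transcription, had 7.92, 9.43 and 6.58 RPKM, and Irf1 had 3.77, 4.46 and 3.42 RPKM, both highest at 9 months. Irf9 had 8.25, 8.19 and 8.06 RPKM with overlapping libraries, and its partner Stat2 had 4.48, 6.17 and 6.15 RPKM.

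Of the remaining effectors, Rsad2 encodes viperin and lies beside Cmpk2 on chromosome 12, which encodes the kinase that supplies its nucleotide substrate. Rsad2 had means of 2.17, 1.57 and 2.46 RPKM and Cmpk2 of 2.67, 2.67 and 4.18 RPKM at 1, 9 and 26 months, with log2 fold changes of 0.62 ± 0.08 and 0.63 ± 0.06 at 26 against 9 months. Ifi44, whose product has been reported to limit viral replication, had 0.417, 0.317 and 0.692 RPKM and a log2 fold change of 0.93 ± 0.12 at 26 against 9 months, and was called in that comparison without library A at 9 months, with a pseudocount of 0.01 RPKM or after removal of the length trend, at 1.01 to 1.11. Parp14, a mono-ADP-ribosyltransferase gene, had 0.350, 0.783 and 0.683 RPKM and a log2 fold change of 0.97 ± 0.08 at 9 against 1 month, and reached 1.00 and a call without library C at 9 months. Rtp4 had 19.0, 12.2 and 16.5 RPKM, Xaf1, an antagonist of an apoptosis inhibitor, had 9.72, 7.60 and 8.57 RPKM, and Ifi35 had 47.9, 38.4 and 44.8 RPKM. These last members were lowest at 9 months.

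**Figure D4:**
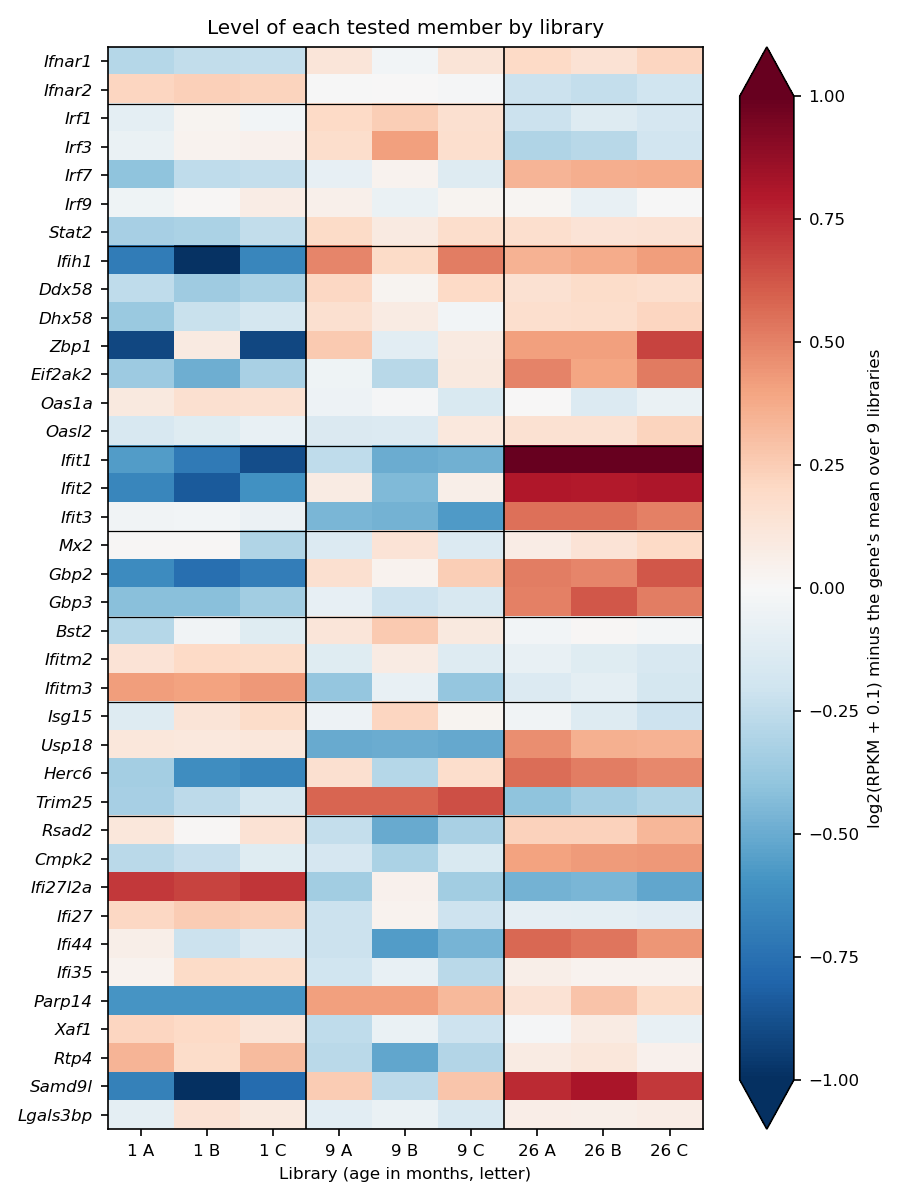
Log2(RPKM + 0.1) of each tested member minus its own mean over the 9 libraries (colour, red above and blue below the mean), with members in rows by role and libraries in columns by age in months and letter. The IFIT genes, Gbp2, Gbp3, Herc6 and Samd9l are red in all libraries at 26 months, and Ifi27l2a and Ifitm3 in all libraries at 1 month.

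Ordered by their means, 20 of the 38 tested members were highest at 26 months, 10 at 1 month and 8 at 9 months. The lowest mean was at 1 month in 18 of them, at 9 months in 12 and at 26 months in 8. The most common order was lowest at 1 month and highest at 26 months, in 14 members, and 6 members were lowest at 9 and highest at 26 months. These orders rest on RPKM as deposited, and how often each occurs among all genes tested was not counted. Genes in general stood higher at the later ages than at 1 month, with log2 medians of 0.27 at 9 and 0.24 at 26 months. Relative to these medians, 15 members lay above and 23 below at 9 months, and 20 above and 18 below at 26 months. A lowest mean at 1 month can thus not be read as particular to the members. Under 1 or more of 4 other scalings (quantile normalization, removal of the length trend, median of ratios, and rescaling without abundant genes), the sign of the log2 fold change turned in 4 members at 26 against 9 months, in 14 at 9 against 1 month and in 5 at 26 against 1 month, none of them called there.

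The other genes of the pathway were taken from a list of 87, of which 74 were tested. At 26 against 9 months, 3 were called, all higher, at 9 against 1 month 1 higher and 2 lower, and at 26 against 1 month 13, all higher. Of all genes tested, 3.28%, 10.1% and 9.92% were called higher in these comparisons and 4.05%, 1.47% and 2.51% lower. Their median log2 fold changes in these comparisons were 0.31, 0.19 and 0.41, beside −0.03, 0.27 and 0.24 for all genes. Slfn2, an interferon-induced gene that keeps T cells and monocytes quiescent, had 1.38, 1.25 and 1.15 RPKM at 1 month, 1.18, 1.20 and 1.28 at 9 months and 3.68, 3.25 and 3.05 at 26 months. It rose by a log2 fold change of 1.38 ± 0.09 (SE, adjusted p = 1.7e-06) at 26 against 9 months and of 1.33 ± 0.09 (adjusted p = 1.0e-06) at 26 against 1 month.

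Dtx3l, the ligase partner of PARP9, had the shape of Ifih1. Its means were 1.15, 2.67 and 2.70 RPKM at 1, 9 and 26 months, and it rose by 1.14 ± 0.11 at 9 against 1 month (adjusted p = 1.2e-05) and by 1.16 ± 0.11 at 26 against 1 month (adjusted p = 9.3e-06). Jak2, a kinase of cytokine receptors including that of interferon gamma, had means of 3.38, 6.62 and 8.47 RPKM and rose by 1.30 ± 0.10 at 26 against 1 month (adjusted p = 3.5e-06). Socs3, an inhibitor of such receptors, had means of 0.875, 1.49 and 2.26 RPKM and rose by 1.28 ± 0.15 in the same comparison (adjusted p = 5.3e-05). Isg20, an exonuclease gene, had means of 1.77, 0.625 and 1.05 RPKM and fell at 9 against 1 month by a log2 of 1.39 ± 0.13 (adjusted p = 1.3e-05). For Slfn2, Dtx3l, Jak2, Socs3 and Isg20 the calls are given with the main settings only. Ifih1, with values close to those of Dtx3l, lost its calls under quantile normalization, median of ratios scaling and removal of the length trend. Of the 7 ligand genes on the list, named after their values were seen, Ifnb1, Ifna4, Ifne, Ifnl2 and Ifnl3 were listed at 0 in all 9 libraries, and Ifng was listed at 0.025 RPKM in 2 libraries at 26 months and at 0 in the rest. Ifnk, which encodes a type I interferon of keratinocytes, was listed in every library, with means of 0.167, 0.333 and 0.2 RPKM at 1, 9 and 26 months, and was not called.

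Markers of other cell types moved between the same ages. The 18 macrophage markers found in the table summed to 224 to 234 RPKM at 1 month, 404 to 422 at 9 months and 1269 to 1289 at 26 months. The calls among them were 7 at 26 against 9 months, 2 at 9 against 1 month and 7 at 26 against 1 month, all higher. Of all genes tested, 3.28%, 10.1% and 9.92% were called higher in these comparisons. The log2 fold change was negative in 3, 8 and 2 of the 18 markers. Among them the defining marker Csf1r was nearly level, with means of 5.29, 5.03 and 5.58 RPKM, while Lyz2 had 84.2, 258 and 946 RPKM. Lyz2 alone thus made up most of the sum at 9 and 26 months. Each of the 18 was above 0 at every age. The 10 endothelial markers summed to 56.0 to 63.8, 89.8 to 97.3 and 113 to 116 RPKM at 1, 9 and 26 months. The part of these cells in the higher IFIT, Gbp2, Samd9l and Herc6 levels at 26 months was not tested.

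The 12 neutrophil and red cell markers summed to 3163 to 3271, 374 to 465 and 694 to 738 RPKM at 1, 9 and 26 months, and the 10 lymphocyte markers to 20.6 to 22.4, 1.93 to 2.20 and 4.70 to 4.83 RPKM. The lymphocyte sum does not describe each marker. Of the 9 tested, 5 were called lower and 3 higher at 26 against 1 month, where 2.51% and 9.92% of all genes were. Both sums were highest at 1 month and lowest at 9 months. The means of Ifi27, Ifitm3, Oas1a, Rtp4, Xaf1 and Ifi35 had the same order, whereas Ifi27l2a was lowest at 26 months. For Ifi27, Ifitm3, Oas1a and Xaf1 the libraries at 9 and 26 months overlapped, so which of these ages is lower is unsettled. The part of these cells in the high Ifi27l2a level at 1 month was not tested.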

How the data were processed

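Stria vascularis cells of CBA mice were sequenced at 1, 9 and 26 months, in 3 libraries an age, after SMARTer amplification and Nextera library preparation. With CLC Genomics Workbench (version not given in the sources used here) the authors mapped reads to GRCm38, and they deposited RPKM for 48709 genes, 1 value per library for 4 runs. All values are multiples of 0.025, no counts were used, and the depth and strand setting are unknown. A notes sheet writes 28 months beside the oldest libraries, for which the labels' 26 months is used. The authors' sheets of age means, p-values and fold changes were not used.

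For 15806 genes that reached 0.1 RPKM in 3 or more libraries, log2(RPKM + 0.1) was modelled in limma 3.58.1 (R 4.3.3) as a mean for each age over the 9 libraries, with empirical Bayes moderation and a mean-variance trend. Calls needed a two-sided p, adjusted after Benjamini-Hochberg, of no more than 0.10 and a log2 fold change of 1 or more in size. The labels' letters A, B and C were not treated as pairing libraries across ages. Deviations of libraries with the same letter correlated by 0.18 for A and 0.23 for B at 9 against 1 month, and by −0.05 to 0.04 otherwise. Members and lists were chosen with earlier results of these data known. Values in every library are given for members called in at least 1 comparison, and other pathway genes are named where called with a mean of at least 1 RPKM. Coordinates are from GENCODE M21 and promoter windows from RefSeq. Alternatives were other pseudocounts, filters and thresholds, other scalings, removal of each library's trend of level with exon length, fits without trend, on 2 ages or with the letter as a block, averaging of near-identical libraries and leaving out each library. Figures were made with Python 3.11.15 and matplotlib 3.10.9.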

Additional observations from a re-analysis of the deposited data

How the results depend on the processing

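Apart from the averaging of near-identical libraries, Ifit1 kept its calls in both comparisons with 26 months in every alternative. Ifit2, Samd9l and Ifi27l2a likewise kept theirs at 26 against 1 month. Some alternatives, such as leaving out a library of an age not compared, left the log2 fold changes unchanged. These could not move a value across the fold threshold. No called value of a member turned its sign. Without the fold threshold, 26, 33 and 31 members passed at 26 against 9 months, 9 against 1 month and 26 against 1 month. At 26 against 9 months, 3 members were called with a pseudocount of 0.01 RPKM, after quantile normalization and after removal of the length trend. At 9 against 1 month, 0 members were called with a pseudocount of 1 RPKM, quantile normalization or removal of the length trend, where Ifih1 was at 0.59 to 0.70, and 3 with a pseudocount of 0.01 RPKM. After median of ratios scaling 1 member was called there, Ifi27l2a lower at −1.22 in place of Ifih1 at 0.92. At 26 against 1 month, 4 members were called with a pseudocount of 1 RPKM and likewise after quantile normalization, and 5 after median of ratios scaling and after removal of the length trend. The cause of these differences was not tested. Leaving out 1 library at a time gave 1 to 3, 1 to 3 and 6 to 8 members called. With the letter of the library as a replicate block, 2, 1 and 8 members were called, the same members as without it. Averaging near-identical libraries left 5 samples and no replicate at 26 months, so only effect sizes are given. The log2 fold change at 26 against 9 months was then 1.55 for Ifit1 and 1.03 for Ifit3, and that of Ifih1 at 9 against 1 month was 1.10. Over all genes, 1159, 1827 and 1964 were called in the 3 comparisons, against 311, 453 and 564 with a pseudocount of 1 RPKM, 1758, 2738 and 2833 with one of 0.01 RPKM, and 522, 1063 and 1086 when genes with a mean under 1 RPKM were left out. At 9 against 1 month, 1594 of the 1827 were higher, against 531 of 996 after quantile normalization, 759 of 1151 after median of ratios scaling and 537 of 877 after removal of the length trend. At 26 against 1 month the split was 1568 of 1964, against 798 of 1539, 936 of 1619 and 793 of 1382 in the same settings. Read depth was unknown, so the counting error of members under 1 RPKM, such as Zbp1 and Mx1, could not be given.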
